A study of Arabidopsis thaliana with 6 samples.

Results

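MET1, CMT3, CMT2, DRM2, DDM1, VIM1 and VIM3 encode the core machinery that keeps cytosine methylation in place in Arabidopsis thaliana. They were taken from the deposited gene expression table by their locus identifiers and make up 7 of its 33189 genes. RNA was sequenced from 7-day seedlings of the mutant tsk-4 (3 libraries) and of the wild type (3 libraries), both in the ecotype Col. tsk-4 is a mutant allele of TONSOKU (TSK), known for its part in repairing DNA at replication forks. The series asked how loss of TSK bears on repressive chromatin. The labels give neither the lesion of the allele, nor whether seedlings were pooled, nor whether replicates were grown apart, so p-values measure the spread between these libraries, which may be technical.

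Cytosine methylation in plants occurs in CG, CHG and CHH contexts, where H is any base but G, and each context has its own maintenance route. MET1, the plant homologue of the mammalian enzyme DNMT1, copies CG methylation to the new strand after replication, and the VIM proteins, which bind hemimethylated CG sites, are needed for this. CMT3 and CMT2 are chromomethylases that read methylated H3K9. CMT3 maintains CHG methylation, and CMT2 acts mostly on CHH sites in the body of long heterochromatic transposable elements. DRM2 is directed to its targets by small RNAs, and DDM1 is a chromatin remodeller that gives the methyltransferases access to heterochromatin.

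Values are deposited TPM, transcripts per 1000000 over the gene table, whose length term is the genomic span of a gene with introns included. The 6 libraries held 13726929 to 14946295 reads in that table, recovered from the TPM steps. TSK measured 0.831, 0.959 and 0.918 TPM in the tsk-4 libraries, against 3.73, 3.35 and 3.78 TPM in the Col libraries, lower in every tsk-4 library than in any Col library. Leaf markers were present in all libraries, with a sum over 7 genes of 61540 to 63522 TPM in tsk-4 and 74474 to 77611 TPM in Col, 5 of the 7 being called lower in tsk-4 (4.96% of all tested genes were). LHCB5, an antenna protein gene of the same list, was called higher, with 9670 ± 306 TPM in tsk-4 and 6207 ± 178 TPM in Col (limma adjusted p = 9.7e-05). The 4 pollen markers summed to at most 0.189 TPM. Root markers (8 genes) summed to 202 to 228 TPM in tsk-4 and 185 to 187 TPM in Col; the part of either shift in the results was not tested. Whole seedlings were used, so fewer cells of a type and less RNA per cell cannot be told apart. On the second principal component (16.5% of the variance) tsk-4 2 (score -16.2) lay apart from tsk-4 1 and 3 (15.2 and 10.7), and Col 3 (-27.4) from Col 1 and 2 (15.7 and 2.1). The genes of G2 and mitosis (10 genes) summed to 346, 326 and 352 TPM in tsk-4 and to 217, 239 and 287 TPM in Col 1, 2 and 3. The S phase genes (14 genes) summed to 277, 275 and 279 TPM in tsk-4 and to 263, 264 and 297 TPM in Col 1, 2 and 3.

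All 7 genes were expressed at a moderate level in both genotypes and passed the filter of at least 1 TPM in at least 3 libraries. On a scale per exon length, recomputed from recovered reads, VIM1 was highest, with 42.7 ± 0.0588 TPM in tsk-4 and 34.6 ± 4.58 TPM in Col (SD, n = 3 each). CMT3 followed with 30.1 ± 1.46 TPM in tsk-4 and 28.0 ± 1.38 TPM in Col, and its range overlapped that of MET1, with 28.8 ± 1.46 and 27.2 ± 1.86 TPM, in both genotypes. CMT2 held a different place in the order of the 2 genotypes. In tsk-4 it measured 17.4 ± 1.202 TPM per exon length, in a group of overlapping ranges with VIM3 (18.3 ± 0.581 TPM) and DDM1 (16.7 ± 1.06 TPM). In Col it measured 25.0 ± 1.05 TPM, overlapped MET1 and lay above DDM1 (14.6 ± 0.845 TPM) and VIM3 (14.01 ± 1.96 TPM) in every library. DRM2 was lowest, with 10.3 ± 0.434 TPM in tsk-4 and 9.18 ± 1.49 TPM in Col.

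**Figure D1:**
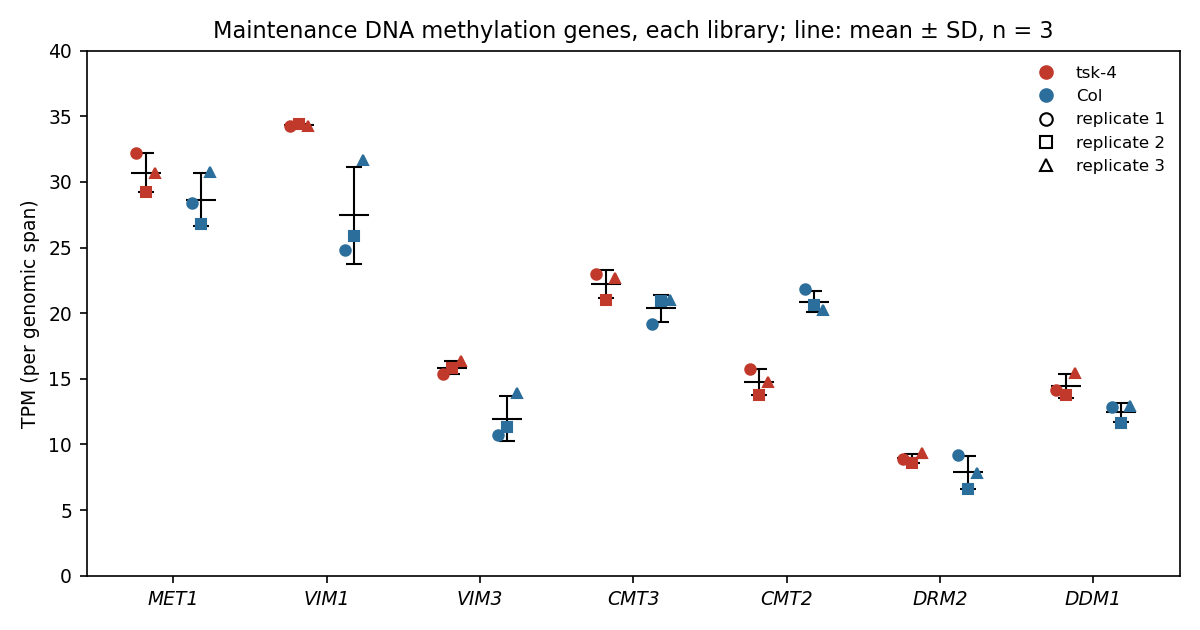
Deposited TPM per genomic span (vertical axis) of the 7 maintenance methylation genes, with tsk-4 in red left of Col in blue and a symbol per replicate; the lines give the mean and SD over 3 libraries. CMT2 is the gene whose tsk-4 libraries (13.7 to 15.7 TPM) lie below the Col libraries (20.3 to 21.8 TPM), while VIM1 and VIM3 lie higher in tsk-4, with Col 3 nearest to the mutant.

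Across the 7 genes, limma on log2(TPM + 0.5) called 1 lower (CMT2) and 2 higher (VIM1 and VIM3) in tsk-4 at an adjusted p under 0.05. Over all 19574 tested genes 19.8% were called, 4.96% lower and 14.9% higher. The median log2 change was 0.18 over the 7 genes and 0.08 over all tested genes. CMT3, DDM1, VIM1 and VIM3 had all tsk-4 libraries above all Col libraries and CMT2 had them below. Such separation occurred in 37.5% of tested genes, 26.7% upward and 10.9% downward. On recovered reads, limma-voom called 1 member lower (CMT2) and 1 higher (VIM3), against 9.03% lower and 9.67% higher of 21646 genes.

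CMT2, the chromomethylase of heterochromatic CHH sites, was the gene that changed most. CMT2 (AT4G19020, chromosome 4, 10414428 to 10421265, plus strand, TAIR10.1) measured 15.7, 13.7 and 14.8 TPM in tsk-4, against 21.8, 20.6 and 20.3 TPM in Col. The groups did not overlap, and the highest tsk-4 library was well under the lowest Col library. The mean fell by 29.4%, to 14.7 ± 0.995 TPM in tsk-4, against 20.9 ± 0.822 TPM in Col (SD, n = 3 each). The log2 change was -0.49 ± 0.09 (limma SE; 95% interval -0.69 to -0.29; limma adjusted p = 0.0054). On recovered reads CMT2 had 705, 600 and 658 in tsk-4 and 909, 943 and 902 in Col, a log2 change of -0.59 ± 0.08 (limma-voom adjusted p = 5.5e-05). The call held in each of 6 fits that left out 1 library, with limma adjusted p of at most 0.024. It also held under every scaling tried, where the change ranged from -0.70 with reference genes to -0.49 as deposited. Of all tested genes, 832 (4.25%) had a lower log2 change than CMT2. Every 50-base word of its exons occurs once in the genome, and no annotated gene overlaps it.

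The fall of CMT2 was also seen relative to the other members within the same library, a measure that does not depend on how libraries are scaled to each other. The log2 ratio of CMT2 to CMT3 was -0.55, -0.61 and -0.62 in tsk-4, against 0.19, -0.02 and -0.05 in Col 1, 2 and 3. The transcripts of both chromomethylases were thus near parity per genomic span in Col, and CMT3 exceeded CMT2 in tsk-4. Parity in Col depended on the length term. Per exon length CMT3 was above CMT2 in Col too, with 26.4 to 28.8 TPM against 24.2 to 26.2 TPM. In tsk-4 the ranges on that scale were 28.5 to 31.1 TPM and 16.2 to 18.6 TPM. The ratio of CMT2 to MET1 was -1.03, -1.09 and -1.06 in tsk-4 and -0.38, -0.38 and -0.60 in Col. The differences between genotypes for the 6 ratios with CMT2 on top ran from -0.60 (MET1) over -0.63 (CMT3), -0.70 (DRM2), -0.72 (DDM1) and -0.83 (VIM1) to -0.92 (VIM3). In each of the 6 the genotypes did not overlap. Among 19395 other genes with reads in every library, CMT2 was likewise lower in tsk-4 relative to 78.7% of them, without overlap, and higher relative to 0.974%. Each ratio gave a two-sided exact permutation p of 0.1, the smallest that 3 libraries against 3 allow, and 0.21 adjusted over all 21 pairs of members. Of the 15 pairs without CMT2, 4 did not overlap between genotypes. The share of such pairs over all genes was not computed, so this count cannot be read as high or low.

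**Figure D2:**
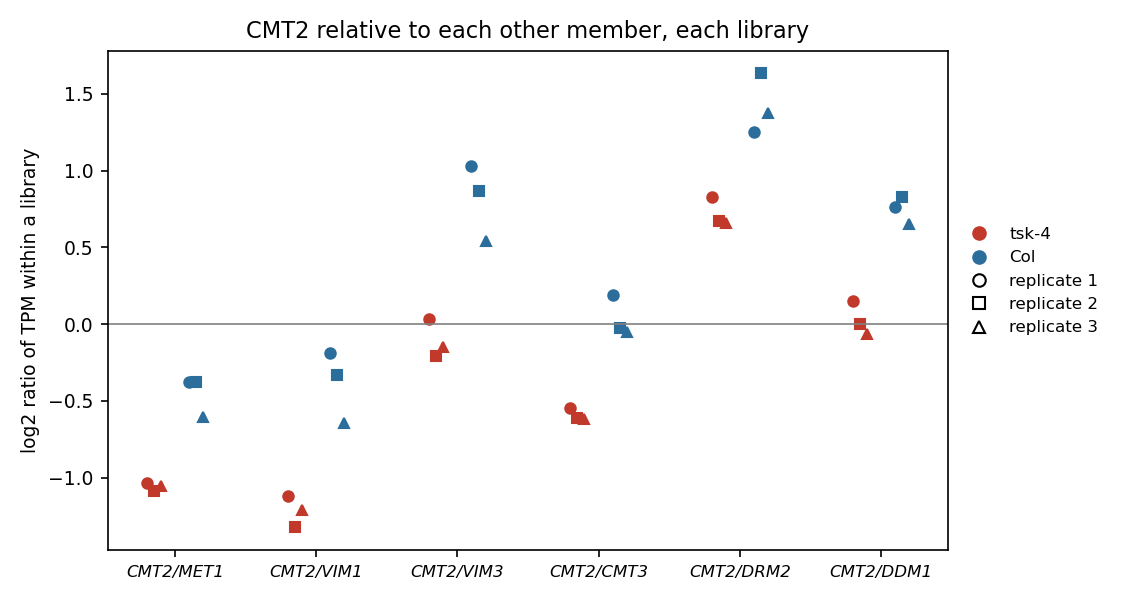
Log2 ratio of the TPM of CMT2 to that of each other gene within a library (vertical axis), with tsk-4 in red left of Col in blue and a symbol per replicate. All 6 ratios are lower in tsk-4 than in Col in every library, with mean differences from -0.60 (MET1) to -0.92 (VIM3).

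VIM1 and VIM3 encode RING and SRA domain proteins that bind hemimethylated DNA and act with MET1 in CG maintenance. VIM1 (AT1G57820, chromosome 1, 21413981 to 21418115, minus strand) measured 34.3, 34.4 and 34.2 TPM in tsk-4, against 24.8, 25.9 and 31.7 TPM in Col 1, 2 and 3. VIM3 (AT5G39550, chromosome 5, 15837178 to 15840678, minus strand) measured 15.3, 15.8 and 16.3 TPM in tsk-4, against 10.7, 11.3 and 13.9 TPM in Col 1, 2 and 3. For both genes all tsk-4 libraries lay above all Col libraries, and Col 3 was the nearest to the mutant. VIM1 rose by a log2 change of 0.32 ± 0.10 (95% interval 0.11 to 0.54; limma adjusted p = 0.046) and VIM3 by 0.40 ± 0.11 (interval 0.15 to 0.65; limma adjusted p = 0.036).

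Col 3 exceeded the mean of Col 1 and Col 2 by 0.32 (VIM1) and 0.34 (VIM3) on the log2 scale, while the median over tested genes was 0.03. In the same library the G2 and mitosis sum and the S phase sum were the highest of the 3 Col libraries; their part in the level of the VIM genes was not tested. Without Col 3 the changes were 0.43 (limma adjusted p = 0.0044) and 0.51 (adjusted p = 0.0075). Without any 1 of the other 5 libraries neither gene was called (adjusted p from 0.075 to 0.15). On recovered reads VIM3 was called (0.32 ± 0.11, limma-voom adjusted p = 0.047) and VIM1 was not (0.24 ± 0.09, adjusted p = 0.069), where 18.7% of tested genes were called.

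VIM3 shares coding sequence with VIM2 and VIM4, close relatives on chromosome 1, and this bears on how reads are assigned. The longest exact run that VIM3 shares with VIM4 has 107 bases, is also present in VIM2, and lies in the coding sequence of VIM3 at chr5:15839396-15839502, minus strand, in TAIR10.1 from RefSeq. The first 45 bases of the run are also shown in VIM1 (chr1:21416859-21416903, minus strand), where capitals mark the 9 bases that differ from VIM3.
VIM3, VIM2 and VIM4: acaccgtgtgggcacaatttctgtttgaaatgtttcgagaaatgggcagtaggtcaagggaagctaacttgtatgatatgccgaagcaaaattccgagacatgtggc
VIM1: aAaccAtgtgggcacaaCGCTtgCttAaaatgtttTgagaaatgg
Of the 50-base words in VIM1 exons 100% occur once in the genome, against 85.3% in VIM3, 32.8% in VIM2 and 23.4% in VIM4. No word of that length in VIM1 is thus shared. Pooled over VIM2, VIM3 and VIM4, an alternative chosen after seeing the data, the reads were 391, 389 and 406 in tsk-4 and 275, 289 and 349 in Col. Their log2 change was 0.28 ± 0.10 (limma-voom adjusted p = 0.057), so the VIM3 call on reads was not kept in the pooled count. How reads that map to several places were treated is not given in the sources used here.

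**Figure D3:**
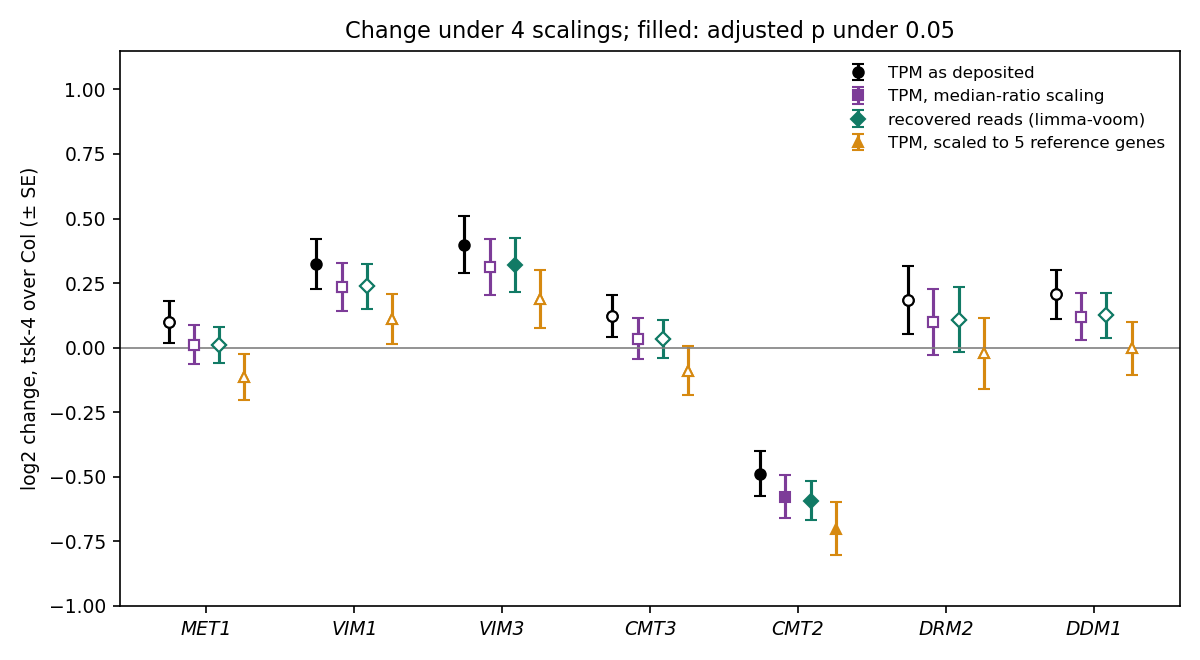
Log2 change, tsk-4 over Col (vertical axis, ± SE), of the 7 genes under 4 scalings, with filled symbols for an adjusted p under 0.05. CMT2 is filled under all 4, from -0.49 to -0.70, VIM1 only with TPM as deposited, and VIM3 with TPM as deposited and on recovered reads.

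MET1 and CMT3, the methyltransferases of the CG and CHG contexts, showed no detected change. MET1 (AT5G49160, chromosome 5, 19932114 to 19938470, plus strand) measured 32.2, 29.2 and 30.7 TPM in tsk-4, against 28.4, 26.8 and 30.8 TPM in Col. The groups overlapped, and the log2 change was 0.10 ± 0.08 (95% interval -0.08 to 0.28; limma adjusted p = 0.43). CMT3 (AT1G69770, chromosome 1, 26248118 to 26253687, minus strand) measured 23.0, 21.04 and 22.7 TPM in tsk-4, against 19.2, 20.9 and 21.004 TPM in Col. The lowest tsk-4 library was only just above the highest Col library, and the log2 change was 0.12 ± 0.08 (interval -0.06 to 0.31; limma adjusted p = 0.33). The intervals on TPM as deposited thus leave out a fall of either gene as large as the change of CMT2.

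DDM1 and DRM2 were not called either, and their intervals were wider. DDM1 (AT5G66750, CHR1 in the annotation, chromosome 5, 26648897 to 26653191, plus strand) measured 14.1, 13.8 and 15.5 TPM in tsk-4, against 12.8, 11.6 and 12.9 TPM in Col. All tsk-4 libraries were above the Col libraries, with a log2 change of 0.21 ± 0.10 (95% interval -0.01 to 0.42; limma adjusted p = 0.16). DRM2 (AT5G14620, chromosome 5, 4715105 to 4718704, minus strand) measured 8.86, 8.62 and 9.33 TPM in tsk-4, against 9.16, 6.64 and 7.80 TPM in Col. It was the member with the largest spread in Col, a coefficient of variation of 16.1% against 4.07% in tsk-4, and the groups overlapped. Its log2 change was 0.18 ± 0.13 (interval -0.11 to 0.48; limma adjusted p = 0.37), and it was 0.29 without Col 1 and 0.07 without Col 2. The direction of MET1, CMT3, DRM2 and DDM1 depended on the scaling, since all 4 turned slightly negative when libraries were scaled to 5 reference genes, which moved the median of all tested genes from 0.08 to -0.12.

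The closest relatives of these genes were mostly silent or weak in seedlings. Of 11 other cytosine methyltransferase and VIM genes 4 passed the filter, and limma called 0 of them (1 had an unadjusted p under 0.05). DRM1, VIM4 and VIM5 had enough recovered reads for a fit only through tsk-4, so they are left aside here. Limma-voom called none of the other genes of this list on recovered reads. DRM3, a catalytically divergent relative of DRM2, measured 14.97 ± 1.86 TPM in tsk-4 and 13.8 ± 0.968 TPM in Col (SD, n = 3 each; limma adjusted p = 0.53). ORL1, a VIM-like gene, measured 6.21 ± 0.479 TPM in tsk-4 and 4.65 ± 0.483 TPM in Col (limma adjusted p = 0.079). Both overlap a gene on the other strand.

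DRM1 and VIM4, which did not pass the filter and were picked after their values were seen, were read almost only in the mutant. DRM1 (AT5G15380, chromosome 5, 4991347 to 4994924, plus strand), the paralogue of DRM2, had 14, 12 and 6 reads in tsk-4 and 0 in each Col library. With 0 reads in Col no fold change is given. VIM4 (AT1G66040, chromosome 1, 24583740 to 24586760, minus strand) had 13, 9 and 13 reads in tsk-4 and 3, 0 and 0 in Col. Both had enough reads for the fit only through tsk-4 and were chosen for this pattern, so no test is given for them. All 50-base exon words of DRM1 occur once in the genome, against 23.4% of those of VIM4, so that the VIM4 reads are uncertain. VIM5, which also had enough reads for the fit only through tsk-4, had 5, 3 and 5 reads in tsk-4 and 0, 2 and 0 in Col. Not all weak relatives were higher in tsk-4. MET2a had 31, 6 and 35 reads in tsk-4 and 40, 67 and 18 in Col (limma-voom adjusted p = 0.24). VIM2 had 26, 26 and 20 reads in tsk-4 and 44, 24 and 32 in Col (limma-voom adjusted p = 0.29). DRM1 at its highest, 0.597 TPM, remained far below the lowest DRM2 library, 6.64 TPM, both per genomic span.

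**Figure D4:**
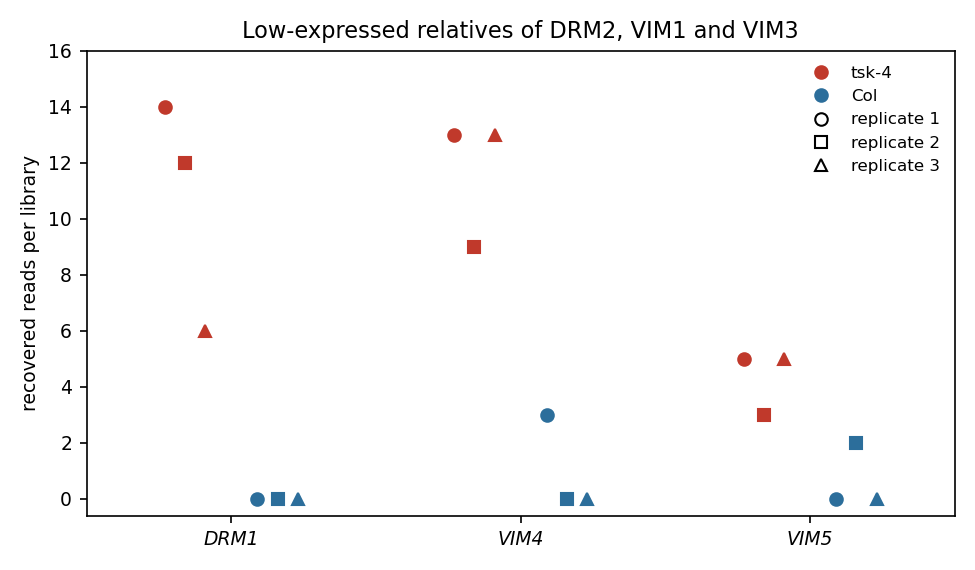
Recovered reads per library (vertical axis) of DRM1, VIM4 and VIM5, with tsk-4 in red left of Col in blue and a symbol per replicate. DRM1 has 6 to 14 reads in tsk-4 and 0 in Col, and VIM4 has 9 to 13 reads in tsk-4 and 0 to 3 in Col. The weak relatives MET2a and VIM2, which had fewer reads in tsk-4 than in Col, are not drawn.

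Of 5 genes of the H3K9 methylation pathway that CMT2 and CMT3 read, 4 were tested and limma called 0 (1 had an unadjusted p under 0.05). IBM1, a histone demethylase that keeps H3K9 methylation and CMT3 out of genes, measured 6.54 ± 0.535 TPM in tsk-4 and 8.53 ± 0.794 TPM in Col (SD, n = 3 each). The groups did not overlap; the log2 change was -0.36 ± 0.12 (limma adjusted p = 0.072), and on recovered reads -0.47 ± 0.10 (limma-voom adjusted p = 0.0040). LDL1, another histone demethylase, measured 14.96 ± 0.769 TPM in tsk-4 and 13.96 ± 1.61 TPM in Col (limma adjusted p = 0.55).

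Of 17 genes of RNA-directed DNA methylation, the route that leads to DRM2, 3 rose, 0 fell and 14 were not called (median log2 change 0.15). With 14.9% of all tested genes called higher, this count was near the background. On recovered reads 3 also rose, with NRPD1 in place of SHH1 (limma-voom adjusted p = 0.023 for NRPD1 and 0.088 for SHH1), and AGO4 fell (adjusted p = 0.047). Of all tested genes 9.67% were called higher and 9.03% lower on recovered reads. SUVH9, which binds methylated DNA and helps recruit the polymerase that produces scaffold RNA, rose to 44.0 ± 2.33 TPM in tsk-4, against 32.3 ± 2.36 TPM in Col (limma adjusted p = 0.0055). DCL3, which cuts the precursors of the guiding small RNAs, rose to 6.01 ± 0.870 TPM, against 3.67 ± 0.257 TPM in Col (adjusted p = 0.018). SHH1, a reader of H3K9 methylation that recruits the polymerase making those precursors, rose to 7.24 ± 0.641 TPM, against 4.96 ± 0.691 TPM in Col (adjusted p = 0.036). SHH1 was called in 1 and DCL3 in 3 of the 6 fits that left out 1 library, SUVH9 in 6, and DCL3 and SHH1 overlap a gene on the other strand. Scaled to reference genes, SUVH9, DCL3 and SHH1 were not called (limma adjusted p = 0.11, 0.081 and 0.19).

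Among 4 DNA demethylase genes, which remove methylated cytosine, ROS1 fell and the other 3 were not called. ROS1 measured 11.9, 9.65 and 14.6 TPM in tsk-4, against 21.2, 20.8 and 18.7 TPM in Col, and the groups did not overlap. The log2 change was -0.74 ± 0.14 (limma adjusted p = 0.0074), and it was called in each of 6 fits that left out 1 library. On TPM as deposited ROS1 was the 1 gene called lower among 43 tested partner genes and 6 were called higher, near the background of 4.96% lower and 14.9% higher. On recovered reads 5 of 52 partner genes were called lower (ROS1, IBM1, AGO4, MAT4 and MBD7) and 8 higher, against 9.03% and 9.67% of all genes. The 8 include DRM1 and VIM4, which had enough reads for the fit only through tsk-4. The higher count therefore cannot be set against the share of all genes. IBM1 and MAT4 were also called lower with median-ratio, quantile and reference gene scaling.

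Of 7 genes that supply methyl groups or clear the product of the methylation reaction, MTHFD1, an enzyme of folate metabolism needed for normal DNA methylation, rose to 95.5 ± 2.20 TPM in tsk-4, against 73.5 ± 7.37 TPM in Col (SD, n = 3 each; limma adjusted p = 0.0095). It overlaps a gene on the other strand and was not called with reference gene scaling (limma adjusted p = 0.14). None of the other 6 was called by limma; on recovered reads MAT4, an S-adenosylmethionine synthetase named after its value was seen, fell by 0.25 on the log2 scale (limma-voom adjusted p = 0.0060); it too overlaps genes on the other strand.

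Among the partner genes that passed the TPM filter, the largest change was that of MBD5, which binds methylated CG sites and acts in silencing downstream of methylation. MBD5 (AT3G46580, chromosome 3, 17148232 to 17149597, plus strand) measured 24.9, 23.5 and 20.3 TPM in tsk-4, against 9.01, 12.2 and 11.9 TPM in Col. Every tsk-4 library was well above every Col library, with a log2 change of 1.03 ± 0.13 (limma adjusted p = 0.0011), called in all 6 fits that left out 1 library. Of the 3 genes of histone H2A.W, the heterochromatin variant whose deposition involves DDM1, HTA7 rose to 110.4 ± 5.996 TPM in tsk-4, against 86.2 ± 9.99 TPM in Col (limma adjusted p = 0.021). HTA7 was called in 2 of those 6 fits and not under median-ratio scaling (limma adjusted p = 0.063). HTA6, HTA12, MBD6 and MBD7 were not called by limma, and MBD7 fell on recovered reads (limma-voom adjusted p = 0.048).

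**Figure D5:**
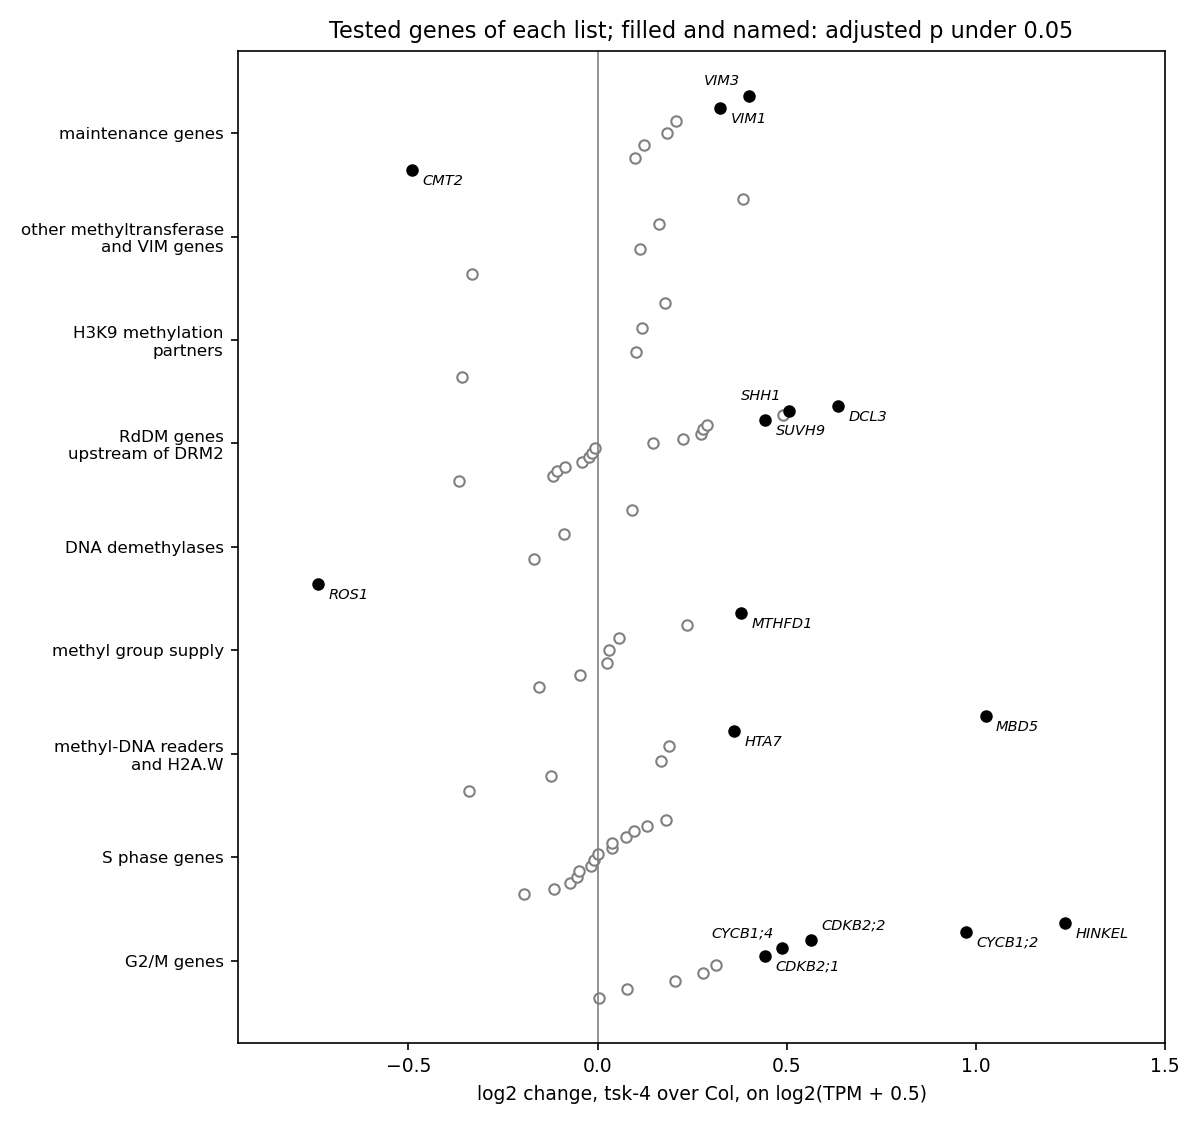
Log2 change, tsk-4 over Col, on log2(TPM + 0.5) (horizontal axis) of the tested genes of each list, with filled and named points for an adjusted p under 0.05. CMT2 at -0.49 and ROS1 at -0.74 are the filled points on the left, and MBD5 at 1.03 lies farthest right among the tested methylation genes.

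SDC, FWA and QQS, loci known to be silenced by DNA methylation, gave little to compare. SDC had 4 reads in tsk-4 and 6 in Col, and FWA had 8 and 4, too few reads to detect a difference. QQS measured 5.16 ± 1.40 TPM in tsk-4 and 4.78 ± 0.507 TPM in Col (SD, n = 3 each; limma adjusted p = 0.82).

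Maintenance follows replication, so the S phase and mitotic genes were set beside the 7 members. Of 14 S phase genes 0 were called by limma (0 had an unadjusted p under 0.05, and 1 fell on recovered reads), with a median log2 change of -0.0035. With reference gene scaling, MCM7, RNR1 and MCM5 were called lower (limma adjusted p = 0.013, 0.031 and 0.047). That scaling called 3098 of all genes lower. Of 10 genes of G2 and mitosis 5 rose and 0 fell, with a median of 0.38, where 14.9% of all tested genes were called higher. On recovered reads, where 9.67% of all tested genes were called higher and 9.03% lower, 4 rose. With reference gene scaling, which called 1097 of all genes higher, HINKEL and CYCB1;2 rose. CDKB2;1 and CYCB1;4 were each called in 1 of the 6 fits that left out 1 library. The part of these sums in the levels of the 7 genes was not tested.

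In the 250 bases upstream of the annotated start, none of the 7 genes held the E2F words TTTCCCGC, TTTCGCGC, TTTGCCGC or TTTGGCGC on either strand, nor the word of the DNA damage regulator SOG1, CTT and AAG set 7 bases apart. Of 27443 protein-coding promoters of this length 1.41% held an E2F word and 9.71% the SOG1 word, while 7 of the 14 S phase genes held an E2F word. The absence says only that these letters are not in these windows. Other forms of the E2F word were not searched, and words that differ in 1 base were not counted. For example, the CMT2 window holds TTTGGCGG, which differs from TTTGGCGC in its last base. It also holds TCGGGAAA, which differs in 1 base from GCGGGAAA, the reverse complement of TTTCCCGC. The DDM1 window holds CTTCCCGC, which differs from TTTCCCGC in its first base. The windows of CMT2 and DDM1 also overlap the neighbouring genes AT4G19010 and AT5G66740.

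By the distance between log2(TPM + 0.5) values centred over the 6 libraries, the pattern of CMT2 was most like that of KEA3 (AT4G04850), a distance of 0.091. KEA3 measured 48.8 ± 4.16 TPM in tsk-4 and 66.6 ± 4.50 TPM in Col (SD, n = 3 each). VIM1 and VIM3 were each other's nearest member, at a distance of 0.11, with 33 genes nearer to VIM1 than VIM3 was and 20 nearer to VIM3 than VIM1 was. The nearest genes overall were AT5G42570 for VIM1 (distance 0.067) and DJ1B for VIM3 (0.058). For MET1, CMT3, DRM2 and DDM1 they were ARP9 (0.046), CUL4 (0.053), PG1 (0.075) and AT5G17630 (0.034). CMT2 had no near member, since 7983 genes lay nearer to it than MET1, its nearest, at 0.74.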

How the data were processed

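RNA-seq of 3 tsk-4 and 3 Col libraries was analysed. The authors deposited TPM for genes; their TPM for transposable elements were not used here. The submitters' processing notes name DESeq2 1.26.0, fastp 0.20.1, HTSeq 0.11.2 and HISAT2, and the build TAIR10. What each tool did, its settings and its use of strand: not given in the sources used here. Each library summed to 1000000 TPM. Identifiers of 33056 genes matched the RefSeq annotation of TAIR10.1, the source of coordinates (1-based), spans and sequences. Multiplied by span, 100% of values above 0 gave whole reads within 0.02 reads. Genes with at least 1 TPM in at least 3 libraries were tested on log2(TPM + 0.5), a scale that understates changes of low genes, by limma 3.58.1 (trended variance; R 4.3.3). Benjamini-Hochberg adjustment ran over all tested genes, and calls had adjusted p under 0.05. On recovered reads limma-voom with median-ratio factors was run for genes with at least 10 reads. Ratios were compared by exact permutation. The fits were also run on simulated data, where every set change was larger than that of any member. That run therefore does not bear on the calls of the members.

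Members and gene lists were chosen with earlier results of these data known. Genes named were the 7 members, TSK, up to 4 called genes of each pathway list (else its 2 most abundant) and each member's nearest pattern; marker lists are given as counts and sums. LHCB5, NRPD1, AGO4, MAT4, MBD7, MET2a and VIM2 were named after their values were seen. So were the S phase, G2 and mitosis genes that gained, kept or lost a call. Tables and plots were made with pandas 2.3.3, SciPy 1.17.1, NumPy 2.4.6 and matplotlib 3.10.9 in Python 3.11.15.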

Additional observations from a re-analysis of the deposited data

How the results depend on the processing

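CMT2 stayed lower and called under every alternative run on it. Of the 2 higher calls, 0 were left with no filter (VIM1 0.32, VIM3 0.40), median-ratio scaling (0.24, 0.31), quantile normalization (0.22, 0.30) and reference gene scaling (0.11, 0.19), and 1 (VIM3) on recovered reads (VIM1 0.24) and with the replicate block (VIM1 0.32, limma adjusted p = 0.064). Pooling VIM2, VIM3 and VIM4 gave 0.28. Leaving out 1 library gave 0.26 to 0.43 for VIM1, 0.33 to 0.51 for VIM3 and 0 to 2 higher members. Reference gene scaling reversed MET1 (-0.12), CMT3 (-0.090), DRM2 (-0.022) and DDM1 (-0.0034), and quantile normalization MET1 (-0.00018). All genes called higher numbered 2912 as deposited, 1815 with median-ratio scaling, 1704 with quantile normalization, 1097 with reference gene scaling and 1783 to 3376 with 1 library left out. Genes called lower numbered 971, 1607, 1660, 3098 and 501 to 1162 in the same order, and 1954 on recovered reads. The cause of these shifts was not tested. Of the 5 reference genes 2 were themselves called higher on TPM as deposited. Same-numbered libraries did not deviate together (correlations of 0.12, -0.087 and -0.11), so the numbers were not taken as pairs. The largest correlation was between tsk-4 2 and Col 3 (0.25), which both lay apart on the second principal component. Its part in the results was not tested. With the replicate block 2310 genes were higher and 750 lower. Depth limits DRM1, VIM4 and VIM5, which had 14 reads or fewer per library.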
